A study of Mus musculus with 6 samples.

Results

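The 9 genes described here are regulators and markers of the trophoblast, the lineage of the blastocyst that forms the placenta. They were listed by name (Cdx2, Eomes, Elf5, Tfap2a, Tfap2c, Hand1, Tead4, Krt7 and Krt18) and are 9 of 21938 protein-coding genes of the annotation. For each gene, the H3K27ac peaks of control mouse embryonic stem cells (mESCs) were read at 3 places: within 1 kb of any annotated transcription start site (TSS), in the gene body, and within 100 kb of either end of the gene. All 9 genes were found in the annotation under these symbols.

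In the mouse blastocyst the outer cells become trophectoderm, and the inner cells become epiblast and primitive endoderm. Where Hippo signalling is low, YAP and TAZ enter the nucleus and work with TEAD4 to activate the trophectoderm gene Cdx2. CDX2, EOMES, ELF5 and the AP-2 factors then maintain trophoblast stem cells, HAND1 acts in trophoblast giant cells, and the keratins KRT7 and KRT18 form intermediate filaments of simple epithelia. Embryonic stem cells derive from the inner cells and seldom form trophoblast. Acetylation of histone H3 at lysine 27 (H3K27ac) marks active promoters and enhancers.

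The cells were mESCs of the E14 line, grown in N2B27 medium with LIF and the inhibitors PD0325901 and CT-99021. The growth notes in the labels name them as E14Tg2A Rosa26-Cre Oct4-IRES-Puro cells, whereas the paper's methods give ES-E14TG2a, so whether they carried these insertions is uncertain. Of 6 ChIP-seq libraries, 2 came from control cells given DMSO, 2 from cells given NVP-2 (an inhibitor of CDK9, 100 nM for 120 min) and 2 from cells given actinomycin D (labelled 800 nM, 120 min). The values below come from the 22973 peaks that the authors called for both control libraries together, so each gene has a single value, without replicate error, and no treated cells were compared.

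The list gives positions only, with no height, score or count, and the read depth behind each peak cannot be read from it. A gene without a listed peak may have had acetylation below the authors' thresholds, or a peak dropped as too far from ATAC-seq summits. Neither can be told apart from no acetylation. As a check of the cells' label, 9 of 10 epiblast regulators had a peak at a TSS, Pou5f1, Nanog and Sox2 among them, against 3 of 9 primitive endoderm genes and 51.9% of all protein-coding genes. Other lists given below stood above that share too, so the count alone does not single out epiblast.

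Promoters of 4 of the genes are shown because they hold the contrast described below: Eomes had a peak beside this stretch, while Cdx2, Krt7 and Krt18 had none within 1 kb of any TSS. Each line gives the bases 5′ to 3′ before the RefSeq start (GRCm38.p6), shortened where an exon of a protein-coding transcript begins. Capitals mark matches on either strand to the AP-2 motif GCCNNNGGC, to the GC box with the letters GGGCGG, or to the box named after its letters CCAAT.
Eomes, chr9:118477939-118478188, + strand: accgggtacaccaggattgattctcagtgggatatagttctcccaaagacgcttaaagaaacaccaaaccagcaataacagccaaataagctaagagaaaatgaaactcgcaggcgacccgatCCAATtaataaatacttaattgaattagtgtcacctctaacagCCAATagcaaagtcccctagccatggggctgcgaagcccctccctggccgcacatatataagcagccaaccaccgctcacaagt
Cdx2, chr5:147307271-147307499, - strand: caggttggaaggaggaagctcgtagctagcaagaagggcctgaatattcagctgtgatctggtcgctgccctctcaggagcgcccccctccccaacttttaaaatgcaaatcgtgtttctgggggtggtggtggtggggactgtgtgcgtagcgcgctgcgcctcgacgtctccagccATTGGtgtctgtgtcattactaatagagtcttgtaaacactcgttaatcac
Krt7, chr15:101412153-101412401, + strand: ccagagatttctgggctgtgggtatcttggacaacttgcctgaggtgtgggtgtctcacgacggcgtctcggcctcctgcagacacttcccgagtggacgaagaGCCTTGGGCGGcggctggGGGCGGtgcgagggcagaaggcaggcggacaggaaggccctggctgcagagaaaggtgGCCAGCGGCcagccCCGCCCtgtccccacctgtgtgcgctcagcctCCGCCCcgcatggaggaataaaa
Krt18, chr15:102027966-102028179, + strand: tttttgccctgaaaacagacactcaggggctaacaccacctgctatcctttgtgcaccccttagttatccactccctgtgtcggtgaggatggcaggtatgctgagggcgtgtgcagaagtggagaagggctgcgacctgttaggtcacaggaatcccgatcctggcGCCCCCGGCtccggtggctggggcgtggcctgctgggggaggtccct
The narrowest peak near any of the 9 genes is shown too, since it was also the peak closest to Hand1. Capitals mark its single match to CANNTG, the E-box, the class of site bound by bHLH factors such as HAND1.
Hand1 peak, chr11:57820335-57820521, + strand: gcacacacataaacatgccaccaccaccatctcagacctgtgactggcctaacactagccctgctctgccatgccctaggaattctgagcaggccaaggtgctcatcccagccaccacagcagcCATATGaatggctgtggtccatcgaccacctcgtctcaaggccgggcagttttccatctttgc

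A peak at a TSS was listed for Eomes, Tfap2a, Tfap2c and Tead4, and none for Cdx2, Elf5, Hand1, Krt7 or Krt18. These 4 of 9 genes compare with 51.9% of protein-coding genes with a peak at a TSS. The same 4 genes had a peak in the gene body (55.9% of protein-coding genes), and 7 of 9 had a peak within 100 kb (82.9%). Only Cdx2 and Krt7 had none within 100 kb. All 3 counts lie below the share over all genes with these definitions, but for only 9 genes they are near it, and none was tested. The counts at a TSS and in the gene body come from the same 4 genes. For gene bodies and neighbourhoods the order depended on the definition: outside the windows of 1 kb around the TSSs, 4 of 9 gene bodies held a peak beside 35.8% of protein-coding genes, and 7 of 9 genes had a peak within 50 kb beside 76.2%. The genes differed among themselves in how many peaks they had and where, as the map of peaks around each gene shows.

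**Figure D1:**
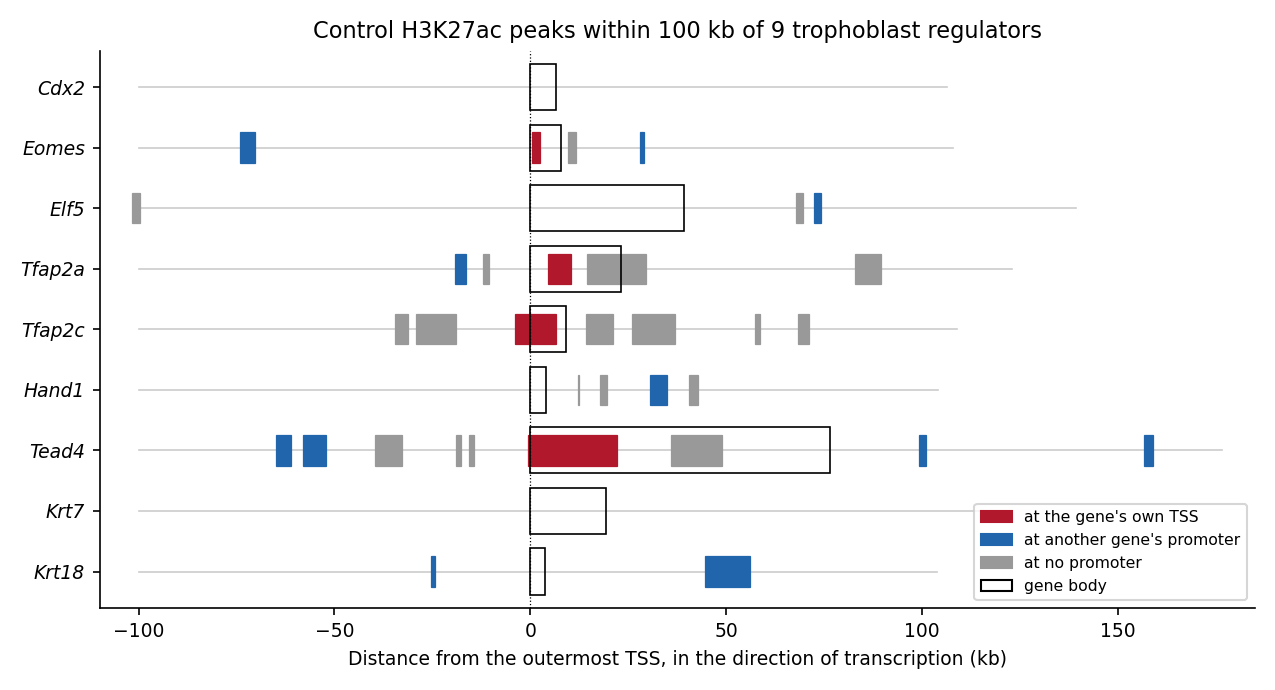
Control H3K27ac peaks (filled bars, to scale) within 100 kb of each gene, by distance in kb from the outermost TSS in the direction of transcription; open boxes are gene bodies, and colours give peaks at the gene's own TSS, at the promoter of another protein-coding or lincRNA gene, and at no promoter. The 4 genes with a peak at a TSS are Eomes, Tfap2a, Tfap2c and Tead4, and the rows of Cdx2 and Krt7 hold no peak.

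Tead4, the DNA-binding partner of YAP and TAZ, had the widest peak of all near these genes. The gene lies on the minus strand at chr6:128224288-128300823. The promoter peak, chr6:128278770-128301392, was 22623 bp wide, and 98.52% of all control peaks were narrower. It began 569 bp upstream of the outermost TSS and ran 22.05 kb into the gene, over exon 1 and intron 1 of isoform Tead4-201. Of 5 isoforms, 4 start inside this peak. The remaining one, Tead4-203, starts 25246 bp further in and 3.193 kb beyond the edge of the peak.

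Another broad peak of 13156 bp lay further into Tead4, over exon 3 and parts of introns 2 and 3. Together both covered 35210 bp, or 46% of the gene body. Within 100 kb Tead4 had 9 peaks, more than 83.45% of protein-coding genes, and they covered 21.41% of the neighbourhood. Of these, 4 overlapped promoters of other genes: Tspan9, the lincRNA Gm10010, and 2 peaks at the neighbouring genes Tulp3, Rhno1 and Foxm1. Only the 2 peaks inside Tead4 had a Tead4 TSS as the nearest protein-coding TSS.

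Cdx2 encodes the caudal-type homeobox factor that sets up trophectoderm and later acts in the gut. It lies on the minus strand at chr5:147300805-147307270, with 1 annotated isoform and no peak in the 206.47 kb searched. The closest peaks were 101.4 kb upstream, a peak just outside the search, and 143.5 kb downstream. Both sides together make a stretch of 251.3 kb without a peak. The other protein-coding genes within 100 kb of Cdx2 were Pdx1, Urad and Flt3. Among protein-coding genes, 17.15% (3762) had no peak within 100 kb.

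Eomes, a T-box factor needed in trophoblast stem cells and later in mesoderm and endoderm, had the smallest promoter peak of the 4 genes. The gene lies on the plus strand at chr9:118478212-118486132. Its promoter peak, chr9:118478551-118480638, was 2088 bp wide, close to the median of all peaks (2068 bp), and lay wholly inside the gene over exons 1 and 2. The peak contains the TSS of Eomes-203. The starts of Eomes-201 and Eomes-202 lie 207 and 339 bp before its edge.

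A peak of 1938 bp lay 1.726 kb beyond the 3′ end of Eomes, and its nearest protein-coding TSS was that of Eomes. The remaining 2 of its 4 peaks overlapped promoters of other genes, the lincRNA Platr11 at 70.28 kb upstream and Golga4 at 20.03 kb downstream. The nearest protein-coding TSS to the Platr11 peak was again that of Eomes. In all, 4.24% of the neighbourhood of Eomes was covered, against a median of 4.266% over protein-coding genes.

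Elf5, an ETS-family factor of trophoblast stem cells and mammary gland, had no peak at any of 7 isoform starts and none in its gene body of 39302 bp (chr2:103411688-103450989, plus strand). It had 3 peaks within 100 kb. One of 2091 bp was 99.72 kb upstream, with the related gene Ehf as the nearest protein-coding TSS. The others, of 1725 and 1705 bp, lay 28.5 and 33.23 kb downstream in Cat, which encodes catalase, and the latter was at the Cat promoter. No peak had Elf5 as its nearest protein-coding TSS, and 167.5 kb around the gene held no peak.

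Both AP-2 genes had peaks at a TSS and broad peaks close by. Tfap2c encodes AP-2 gamma, which acts in trophoblast and in germ cells, and lies on the plus strand at chr2:172549593-172558622. Its promoter peak, chr2:172545603-172556206, was 10604 bp wide, contained the TSS of all 6 isoforms, and covered 73.24% of the gene body. On either side lay 2 upstream and 4 downstream peaks. These 6 overlapped no promoter, and each had Tfap2c as its nearest protein-coding TSS.

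Of the 7 peaks near Tfap2c, 3 were at least 10 kb wide: the promoter peak, one of 10058 bp that ended 19.1 kb upstream, and one of 10940 bp that began 16.87 kb beyond the 3′ end. They made Tfap2c the most covered of the 9 genes, with 21.91% of its neighbourhood, more than for 91.54% of protein-coding genes. Tead4, with 21.41%, was next.

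Tfap2a encodes AP-2 alpha, known from neural crest, skin and trophoblast, and lies on the minus strand at chr13:40715302-40738376. Its promoter peak, chr13:40728096-40733739, was 5644 bp wide and lay inside the gene. The outermost start, that of the longest isoform Tfap2a-203, was 4.637 kb away from it and had no peak within 1 kb. Of 9 isoforms, 7 had a peak within 1 kb of the TSS and 4 started inside it. The starts of Tfap2a-203 and Tfap2a-208 had none, so the peak stood at the internal promoters only.

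At the other end of Tfap2a, a peak of 14993 bp covered exons 4 to 7 of Tfap2a-203 and the 3′ end. Of its length, 8583 bp lay inside the gene and 6410 bp beyond it. The antisense genes Gm47061 and Gm26688 overlap these peaks, and position alone cannot assign a peak to either strand. All 5 peaks within 100 kb had Tfap2a as the nearest protein-coding TSS, and no other protein-coding gene lay in the neighbourhood.

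Hand1, a bHLH factor needed for giant cells and for heart, lies on the minus strand at chr11:57828705-57832818 and had no peak at its 2 start positions or in its 4114 bp body. All 4 of its peaks lay downstream. The closest was the 187 bp peak printed above, 8.184 kb beyond the 3′ end, and only 0.4614% of all peaks were narrower. It was the one peak of the 4 whose nearest protein-coding TSS was that of Hand1. The next, at 13.72 kb, 26.39 kb and 36.47 kb, had Sap30l as the nearest, and the one of 4499 bp was at the Sap30l promoter. Upstream of Hand1 the nearest peak was 123.5 kb away. Among 187-base centres of 22867 peaks, 56.6% held an E-box, so the E-box in the Hand1 peak is common for its length.

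The keratins had no peak of their own. Krt18, a type I keratin that pairs with KRT8, lies on the plus strand at chr15:102028180-102032027. The closest peak, of 1231 bp, was 24.24 kb upstream at the promoter of Krt8. The other peak within 100 kb, of 11470 bp, was 40.79 kb downstream at the promoter of Eif4b, which encodes a translation initiation factor. Owing to these 2 peaks 6.231% of the Krt18 neighbourhood was covered, more than for Eomes with its own promoter peak.

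Krt7, a type II keratin of simple epithelia and a common trophoblast marker, lies on the plus strand at chr15:101411043-101430313. None of its 5 isoforms started within 100 kb of a peak. The nearest peak upstream was 126 kb away at the promoter of Atg101. Downstream none was listed for 572.4 kb, and the next was the Krt8 peak just described. The stretch without a peak around Krt7 was 717.6 kb long, the longest among the 5 genes without a peak at a TSS.

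Over the 9 genes, the median number of peaks within 100 kb was 4, which is also the median of protein-coding genes (quartiles 1 and 7). The median share covered was 4.275% (protein-coding genes 4.266%). It was higher than over protein-coding genes with other distances, at 8.38% beside 3.907% within 50 kb and 8.181% beside 4.747% within 200 kb. Genes with a peak at a TSS had 4 to 9 peaks and 4.24% to 21.91% covered. Those without had 0 to 4 peaks and 0% to 6.231% covered, so both ranges overlapped. These values include the peaks at the TSS by which the genes were divided, so part of the difference follows from the division. Of the 25 peaks near genes with a peak at a TSS, 14 were at no promoter, and of the 9 near the others, 5 were. The share of all control peaks at no promoter was not computed, so these counts have no background beside them.

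**Figure D2:**
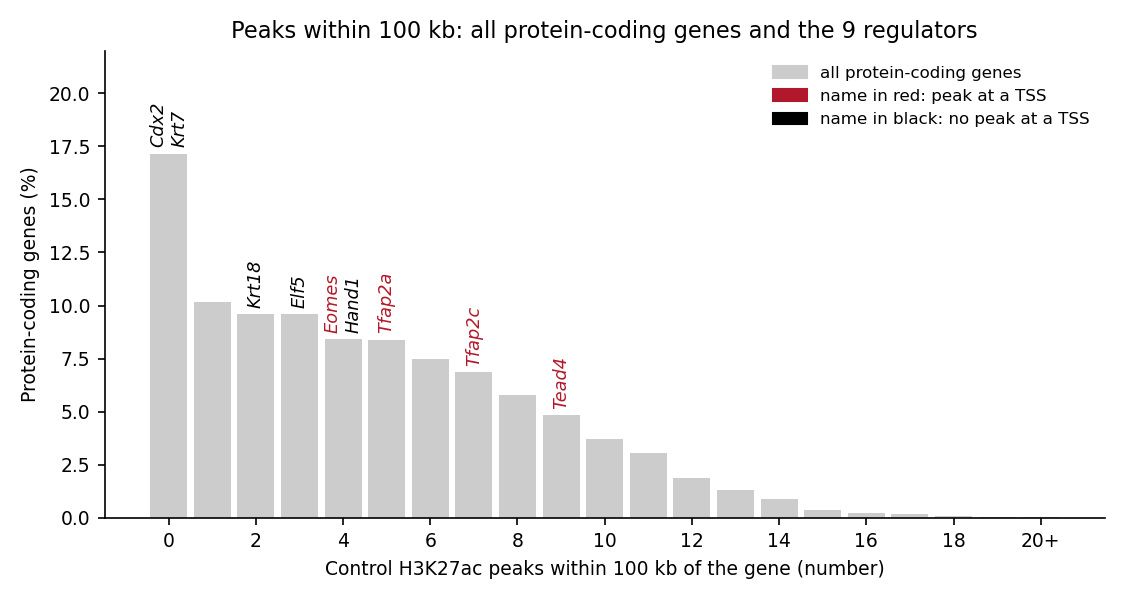
Number of control peaks within 100 kb of a gene (horizontal) against the percentage of all 21938 protein-coding genes with that number (bars); the names mark the 9 genes, in red where a peak lay at a TSS. Cdx2 and Krt7 stand at 0, where 17.15% of genes fall, and Tead4 at 9.

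The 34 peaks near these genes were distinct, with none within 100 kb of 2 of them. The narrowest was 187 bp wide and the widest 22623 bp, and the median width was 2753.5 bp. Of the 34, 7 were at least 10 kb wide, against 7.513% of all peaks. The 7 lay near 4 genes: 3 at Tfap2c, 2 in Tead4, 1 at the 3′ end of Tfap2a, and the Eif4b peak near Krt18. Eomes, Elf5 and Hand1 had none of that width. Median GC content was 49.7%, beside 49.53% over all peaks, and it ran from 43.42% at the Eif4b peak to 66.79% at the Golga4 promoter.

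**Figure D3:**
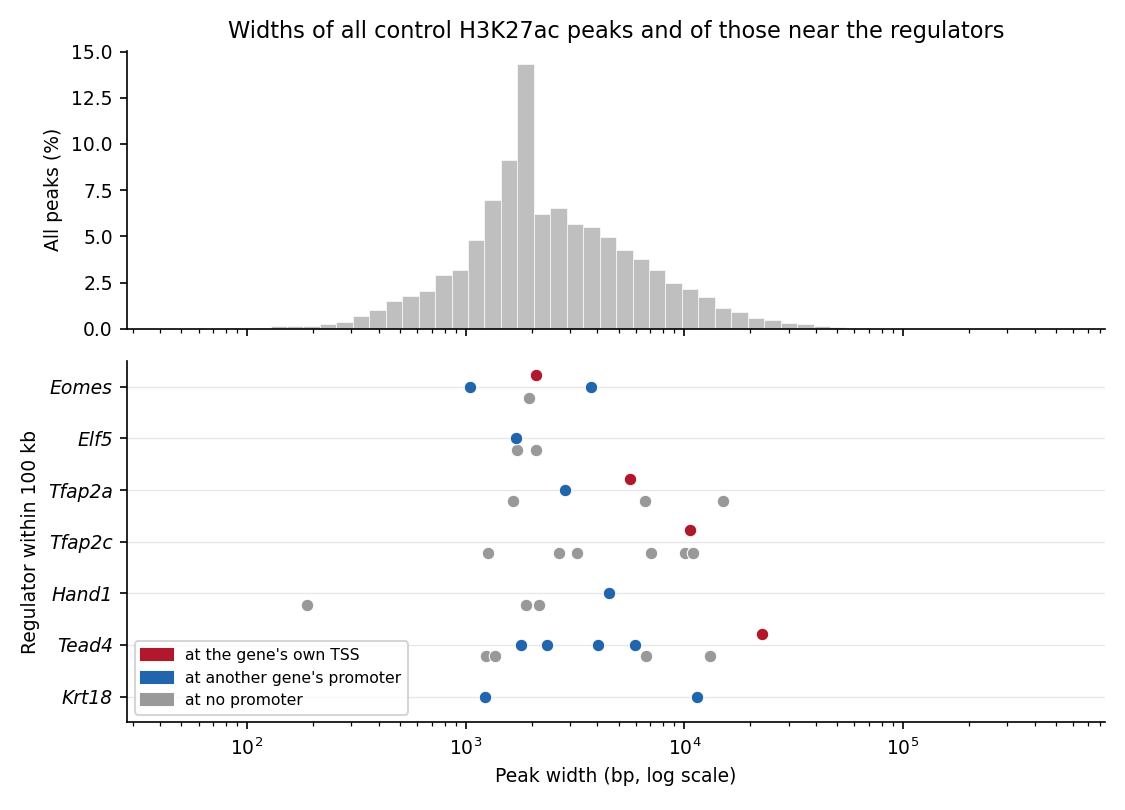
Widths in bp (log scale) of all 22973 control peaks (upper panel, percentage of peaks per bin) and of the 34 peaks within 100 kb of the 7 genes that had any (lower panel, 1 point for each peak, coloured by place). The promoter peaks of Tead4 (22623 bp) and Tfap2c (10604 bp) are broad, that of Eomes (2088 bp) is near the median, and the peak closest to Hand1 (187 bp) is at the narrow end.

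Of 13 listed paralogues, which do not make up whole families, 5 had a peak at a TSS. Of the caudal genes Cdx1 had a promoter peak of 21497 bp, whereas Cdx2 and Cdx4 had none. Of Elf5 and its listed relatives, Elf3 had one of 27832 bp, and Elf5 and Ehf none. Eomes had a promoter peak while its closest T-box paralogues Tbr1 and Tbx21 had none, though Tbx3, a T-box gene of the epiblast list, had one of 34941 bp. Tfap2a and Tfap2c had one while Tfap2b, Tfap2d and Tfap2e had none. For Tfap2b and Tfap2d the nearest peak was 1520 and 1593 kb away. All 4 TEAD genes had a promoter peak, with widths of 21454 bp at Tead1 and 22623 bp at Tead4, and of 2330 and 2147 bp at Tead2 and Tead3. Neither Hand1 nor Hand2 had one.

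Of 14 listed Hippo pathway genes, 13 had a peak at a TSS. The kinases Lats1, Lats2, Stk3 and Stk4 and the coactivators Yap1 and Wwtr1 were among them. Stk3 and Amotl1 had theirs away from the start of the longest isoform. The exception was Amot, an angiomotin scaffold on chromosome X, with the nearest peak 1070 kb away. Among other genes of trophectoderm and trophoblast stem cells, 13 of 18 had a peak at a TSS. Those with one were Ets2, Id2, Fgfr2, Klf5, Esrrb, Sox15, Sox21, Msx2, Arid3a, Cldn4, Lgals3, Smarca4 and Bmp4. The 5 without one were Gata2, Gata3, Dab2, Cldn6 and Plet1. Gata3 and Plet1 had a peak in the gene body.

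In the list for differentiated trophoblast, which holds giant cell, spongiotrophoblast and labyrinth genes, 3 of 17 had a peak at a TSS: Ascl2, Peg10 and Ovol2. Of 5 other keratins of simple epithelia, Krt8 alone had one, by the 1231 bp peak near Krt18. Beside these stand 51.9% over all protein-coding genes and 9 of 10 for the epiblast list, where Klf4 was the exception. Primitive endoderm genes with one were Gata4, Gata6 and Pdgfra. Esrrb and Dab2 each stand in 2 of these lists. None of the counts was tested.

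**Figure D4:**
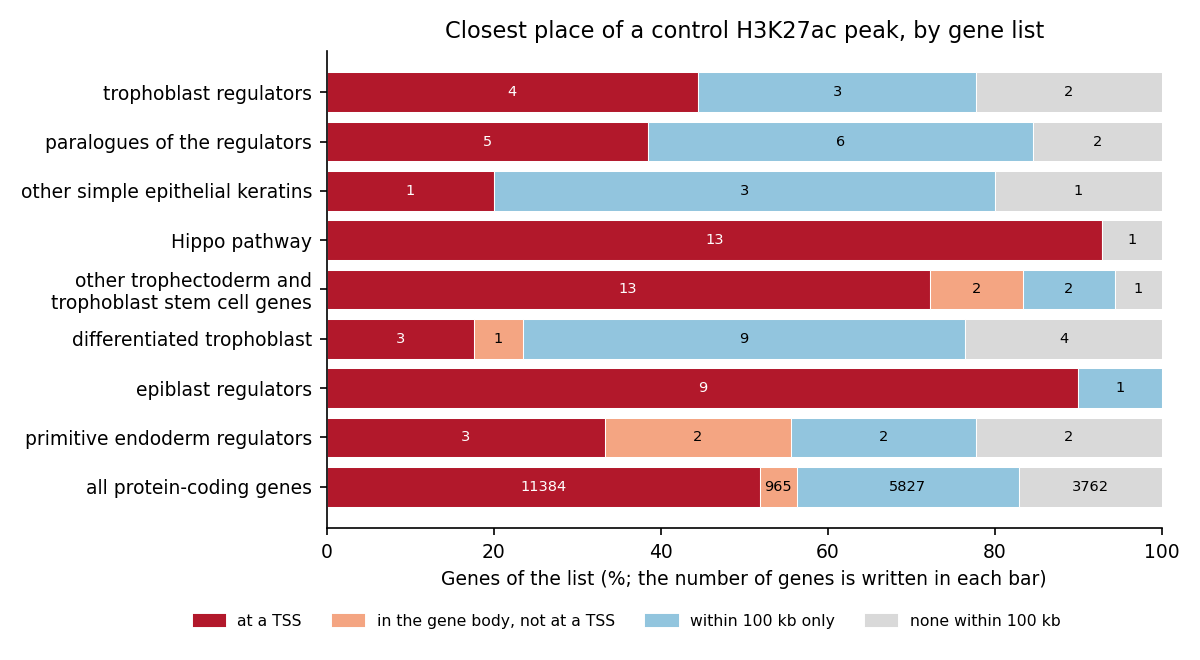
Percentage of genes of each list (bars, with the number of genes written inside) by the closest place of a control peak: at a TSS, in the gene body but not at a TSS, within 100 kb only, or none within 100 kb. The Hippo (13 of 14) and epiblast (9 of 10) lists stand highest at a TSS, and the list for differentiated trophoblast (3 of 17) lowest.

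RefSeq promoters of 300 bases (250 before to 50 after a start) were matched for 6 of the 9 genes, with 2 starts each for Elf5 and Tfap2a. Tead4, Tfap2c and Hand1 were not matched. The ratio of observed to expected CpG, which is high in CpG islands, had a median of 0.7918 in 10358 protein-coding promoters with a peak within 1 kb and of 0.2604 in 9792 without. Among the genes without a peak, Cdx2 had a ratio of 0.731, Krt7 of 0.641 and Krt18 of 0.6028, higher than in 63.11%, 54.17% and 51.18% of all protein-coding promoters. These ratios were below the median of promoters with a peak and above that of promoters without. A ratio of at least 0.6 was reached by 49.13% of all protein-coding promoters, by 77.07% of those with a peak and by 19.58% of those without.

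Of the 4 genes with a peak at a TSS, only Eomes and Tfap2a had a matched promoter. Eomes had a ratio of 0.6072 and a GC content of 47.33%, lower than in all but 20.73% of promoters. For Tfap2a, the start 0.056 kb from the peak had 0.6207 and the start 1.181 kb away had 0.71. Elf5 had the lowest ratios, 0.1095 and 0.4419. Except for Elf5, the ratios ran from 0.6028 to 0.731, with or without a peak.

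**Figure D5:**
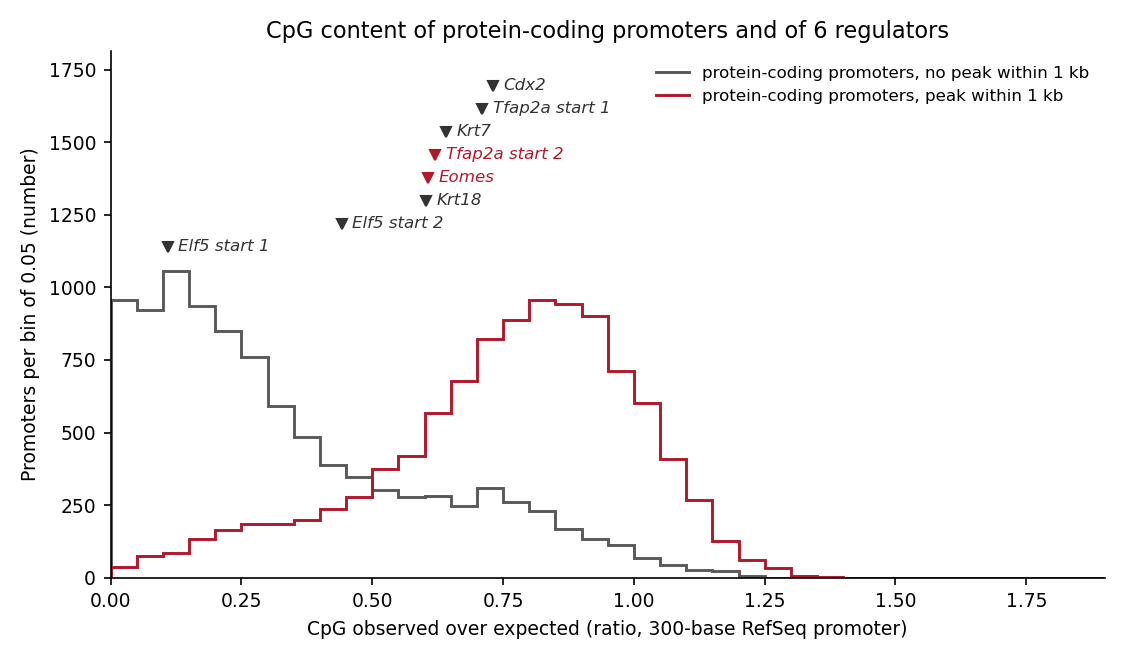
Ratio of observed to expected CpG (horizontal) in 300-base RefSeq promoters of protein-coding genes with (red line) and without (grey line) a control peak within 1 kb of the start, as number of promoters per bin; triangles mark the promoters of 6 of the genes, their height having no meaning. Cdx2 (0.731), Krt7 (0.641) and Krt18 (0.6028) have no peak and lie to the right of most promoters without one.

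The AP-2 motif GCCNNNGGC occurred in 16.6% of 32851 RefSeq promoters and in those of Krt7, Krt18 and Cdx2, none of which had a peak. Krt7 had 2 matches, GCCTTGGGC and GCCAGCGGC, and 4 GC boxes, the first of which shares bases with GCCTTGGGC. The match of Krt18, GCCCCCGGC, began 83 bases before the start. That of Cdx2, GCCGCTGGC, began 16 bases before the RefSeq start inside the GENCODE first exon, beyond the stretch printed above. GC boxes (35.7% of promoters) were also found once at each start of Tfap2a. CCAAT boxes (37.4%) occurred 2 times in Eomes and 1 time in Cdx2.

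Of the remaining motifs, searched on both strands, the TEAD motif GGAATG (14.7% of promoters) was found only at 1 start of Elf5. The T-box motif AGGTGT (13.7%) was found at both starts of Elf5 and in Krt7, the ETS motif GGAAGT (23.8%) in Krt7, and E-boxes (72.3%) in Elf5, Cdx2, Krt7 and Krt18. The caudal motif TTTATNG (10.9%) and TATAAA (13.6%) were in none of these windows. A match is a run of letters and does not show binding.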

How the data were processed

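The mark H3K27ac was assayed by ChIP-seq of mESCs with a HEK293T spike-in. The authors trimmed adapters with Cutadapt, aligned reads to mm10 with the human genome by bwa meme, removed duplicates (Picard 2.9.1) and reads of low mapping quality (samtools 1.4), called peaks with LanceOtron, merged those within 2 kb, and kept peaks above height thresholds near ATAC-seq summits. The deposited control list holds start and end positions pooled over both libraries, so height and replicate spread cannot be read from it. The paper's reporting summary states the read depth of both control libraries, which differed. Merging can widen peaks. Deposited positions were compared with GENCODE M21 (GRCm38), while the paper names a later release. Peak starts were printed counting the first base of a chromosome as 1, with any shared base taken as an overlap. A promoter was 1 kb on each side of a TSS, over all isoforms. A peak at another promoter overlapped such a window of a protein-coding or lincRNA gene. Coverage is the share of the gene and 100 kb on each side that lay in peaks. Promoter sequences came from RefSeq (GRCm38.p6).

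The genes and lists were chosen with earlier results of these data known, so no test was made and values stand beside those of all protein-coding genes. All 9 genes are named. Genes of other lists are named with values where they share a peak with one of the 9, own the nearest TSS to a peak, or are among at most 5 of a list on the rarer side. The distances given for Tfap2b and Tfap2d and the peak of Tbx3 were picked after their values were seen. Python 3.11.15, numpy 2.4.6 and matplotlib 3.10.9 were used, and the functions were tested on simulated data.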

Additional observations from a re-analysis of the deposited data

How the results depend on the processing

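The number of genes with a peak at a TSS stayed at 4 with windows of 500 bp or 2 kb. The shares over protein-coding genes were then 51.5% and 52.7%. The number was also 4 with the TSS base alone (49.1%) and with protein-coding isoforms (50.8%). So it was with an overlap of 500 bp (50.5%) and with peaks of 1 kb or more (46.6%). The number was 3 with the longest isoform alone (48.7%), where Tfap2a lost its peak, the 1 change among 63 single statuses. In the other lists, Stk3, Amotl1, Esrrb and Pdgfra likewise had no peak at the start of the longest isoform. The count for gene bodies was 4 in every alternative tried, but the share over protein-coding genes fell from 55.9% to 44.4% by peak midpoint and 35.8% outside TSS windows, so that the 4 of 9 genes no longer lay below it. The number of genes with a nearby peak was 7 within 50 kb (76.2% of protein-coding genes) and 9 within 200 kb (89%). Without peaks at other genes' promoters it was 6 within 100 kb (70.7%). For only 9 genes, these counts are near the shares beside them. The median number of peaks moved to 8 within 200 kb (7 over protein-coding genes) and to 2 without peaks at other promoters (1 over protein-coding genes). It was 3 within 50 kb (2), 4 around the longest isoform's TSS (3) and 3 with peaks of 1 kb or more (3). The median share covered moved to 4.407% around the longest isoform's TSS, 8.38% within 50 kb, 8.181% within 200 kb and 4.24% with peaks of 1 kb or more, beside 4.126%, 3.907%, 4.747% and 4.058% over protein-coding genes. The cause was not tested.

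No paired analysis was possible because the deposited list pools both control libraries. No replicate was left out for the same reason. Peaks just under the authors' thresholds, or too far from ATAC-seq summits, are not listed, so the counts are of listed peaks only.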
